A study of Mus musculus with 12 samples.

Results

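Collagen genes were taken as every gene of the expression table whose symbol reads Col, a number, the letter a and a number. This gave 44 of the 23943 genes that could be read. Expression was measured by RNA-seq in whole mouse cochleae as FPKM, a fragment count scaled to transcript length and to the mapped reads of the library, in 12 libraries. They form 4 groups of 3: WT at 5 months (E1, E3 and E4), KO at 5 months (E7, F18 and F19), WT at 8 months (F1, F10 and F12) and KO at 8 months (F5, F6 and F27). KO stands for the label Dusp1-/-, mice without a working copy of the phosphatase that switches off stress-activated kinases, and WT for wild type, and all groups share the mixed strain 129S2/SvPas:C57BL/6. Codes such as E1 are those given with each animal, and p-values measure the spread between these libraries.

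Collagens are the main structural proteins of extracellular matrix, and 3 chains wind into a helix whose core has room only for glycine, the first residue of each triplet. In the cochlea they build the bone of the otic capsule, the fibrils of the tectorial membrane and of the spiral ligament, and the basement membranes under epithelia and around vessels. Chains are named by type and number, so that Col1a1 and Col1a2 encode both chains of type I, the collagen of bone.

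The repeat that makes a protein a collagen can be read in the gene itself. In the deposited annotation (build mm9) the collagen genes lie on 15 chromosomes, and many of their coding exons are 54 bases long and hold 6 triplets of the form glycine, any residue, any residue (Gly-X-Y). The first such exon of 5 abundant members is shown here to make the repeat visible. Capitals mark the glycine codons, and the sequences are read 5′ to 3′ on the strand of the gene.
Col1a2, coding exon 8, chr6:4465481-4465534, plus strand: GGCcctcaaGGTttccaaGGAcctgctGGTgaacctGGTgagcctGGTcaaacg
Col3a1, coding exon 6, chr1:45382205-45382258, plus strand: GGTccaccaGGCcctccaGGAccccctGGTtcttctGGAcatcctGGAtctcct
Col11a2, coding exon 13, chr17:34188425-34188478, plus strand: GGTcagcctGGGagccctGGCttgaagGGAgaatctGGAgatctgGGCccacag
Col9a2, coding exon 5, chr4:120716301-120716354, plus strand: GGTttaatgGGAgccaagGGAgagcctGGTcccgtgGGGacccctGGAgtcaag
Col6a1, coding exon 9, chr10:76182368-76182421, minus strand: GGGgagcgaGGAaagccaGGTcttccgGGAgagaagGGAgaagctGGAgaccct
Each of them opens with a glycine codon, repeats it at the head of each of the 6 triplets, and ends on a whole triplet.

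The number of such exons differed between and within the structural classes. Counted in 1 transcript per gene, Col24a1 and Col27a1 held 32 each, Col11a1, Col11a2 and Col5a3 held 31, and Col1a1 held 21. Among fibril-associated genes it ran from 4 in Col12a1, Col14a1 and Col20a1 over 14 in the type IX chains to 28 in Col22a1, and Col8a1, Col8a2 and Col10a1, which have no coding exon between the first and the last, had 0. In 9 genes, all of them fibril-forming, the chain ran without interruption for over 300 triplets, from 337 in Col5a3 to 344 in Col3a1. The remaining fibril-forming chains, Col24a1 and Col27a1, had longest runs of 216 and 217. Basement membrane chains had more triplets in all, 436 in Col4a1, but broken into 22 runs of which the longest was 40. Type VI chains were short helices: 109 triplets made up 31.9% of the residues of Col6a1.

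**Figure D1:**
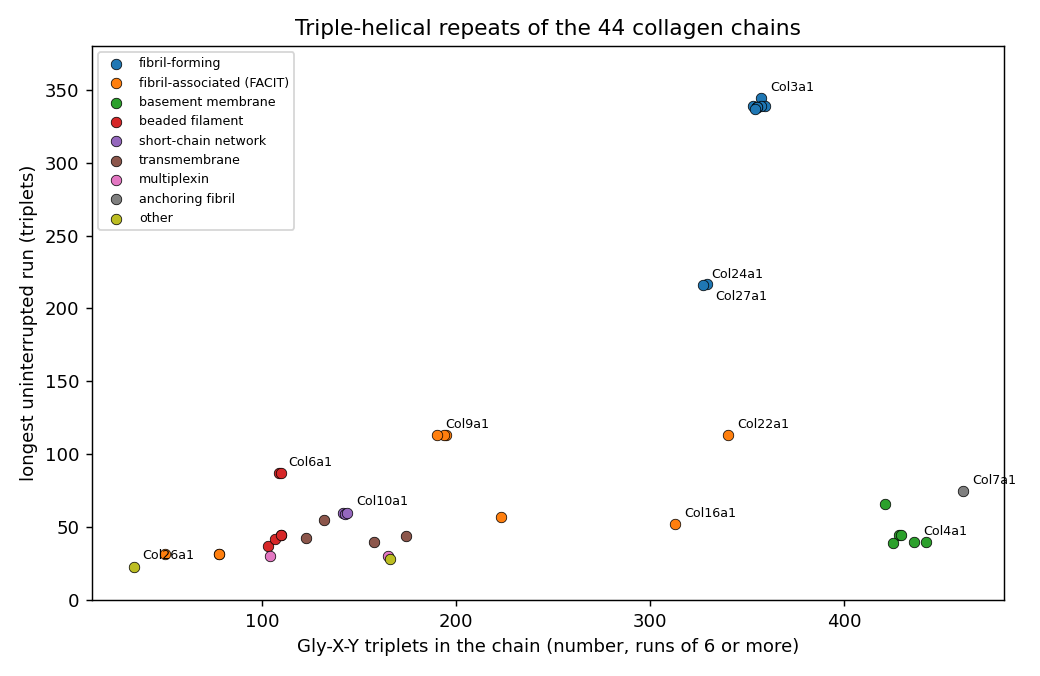
Gly-X-Y triplets in each collagen chain (x axis, number in runs of 6 or more) against the longest uninterrupted run (y axis, triplets), 1 point per gene, coloured by structural class. Fibril-forming chains sit at 216 to 344 triplets in their longest run, and basement membrane chains have over 400 triplets in all with longest runs of 39 to 66.

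Several collagen genes lie beside another one. Col4a1 and Col4a2 start back to back 2 bases apart on chromosome 8, Col4a3 and Col4a4 71 bases apart on chromosome 1, and Col4a5 and Col4a6 1342 bases apart on the X. Col6a5 lies between Col6a4 and Col6a6 on chromosome 9, 29674 and 27984 bases from them. Col11a2 is the only member on chromosome 17, which also carries Dusp1, and starts 7.53 Mb from the end of Dusp1.

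Facts on the libraries bear on all that follows. Absolute depth is not given by FPKM, and the worth of 1 read, judged from the lowest values, was 0.859 to 1.04 times that in E1. Dusp1 was at 55.6 to 81.5 FPKM in the libraries labelled KO and at 29.5 to 60.8 in WT, so its transcript was not lower under the KO label, and every direction below rests on the labels. The X-inactivation transcript Xist put females at 1 of 3 libraries in WT and 0 of 3 in KO at 5 months, and at 1 and 2 of 3 at 8 months. The 11 neutrophil markers, genes of marrow cells, summed to 70.4 to 678 FPKM in WT and 4138 to 22840 in KO at 5 months, and to 686 to 4600 and 894 to 16750 at 8 months, with F12 and F5 highest. Skeletal muscle markers ranged from 5.80 FPKM in E7 to 976 in E3, and those of cochlear epithelium from 590 to 877. All 10 of the latter were present in each library. In whole tissue, fewer cells of a type and less RNA per cell cannot be told apart.

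Collagen transcripts made up 0.129 to 0.237% of all FPKM, 754 FPKM in F6 to 1335 in F5. Of the 44 genes, 3 had a mean over 100 FPKM, 16 lay between 10 and 100, 19 between 1 and 10 and 6 below 1. The leading 2, Col1a2 and Col1a1, held 40.8% of the collagen total and the leading 10 held 77.3%. By class, fibril-forming genes took a median of 67% of the total over the libraries (59.8 to 74.6%), fibril-associated genes 14.9%, the beaded filament genes of type VI 5.8%, short-chain network genes 4.63% and basement membrane genes 3.97%.

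**Figure D2:**
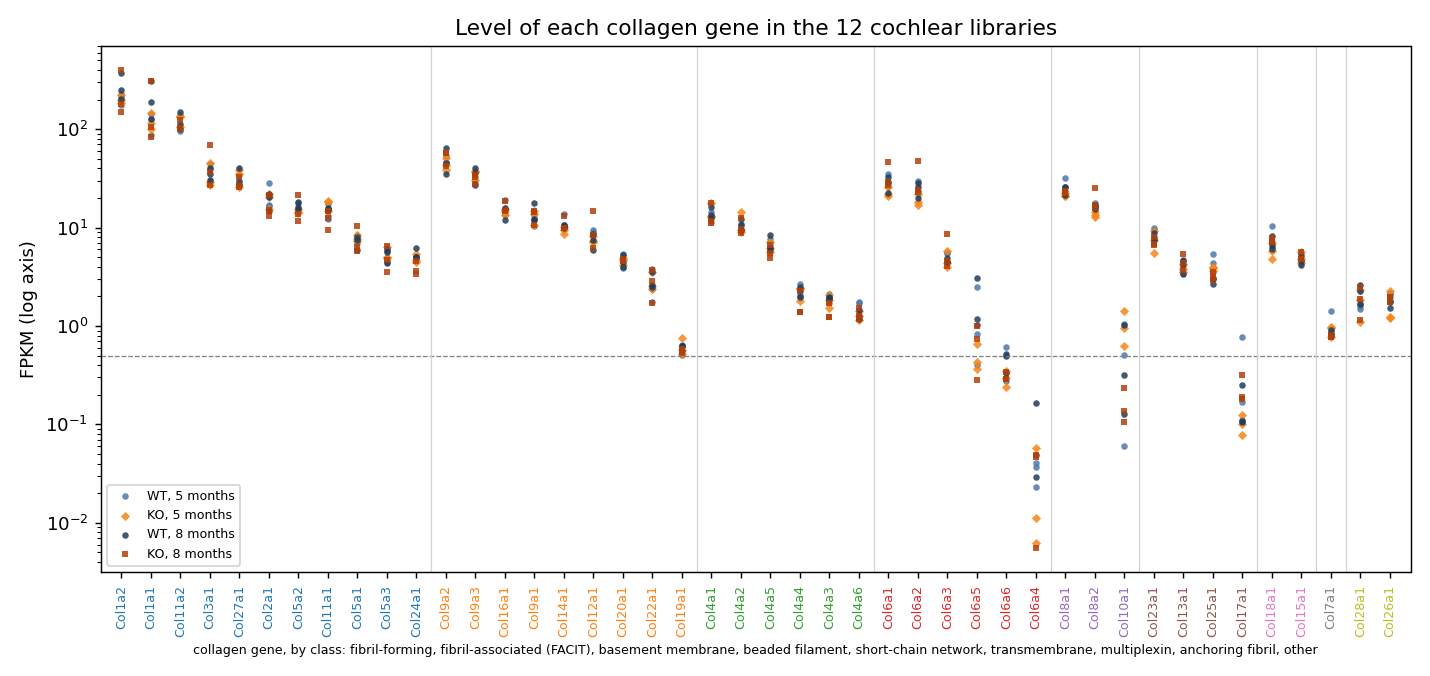
FPKM (y axis, log scale) of all 44 collagen genes (x axis, grouped by class) in the 12 libraries, with colour and shape for the group. The dashed line is the mean of 0.5 FPKM needed for a test, which Col6a6, Col17a1 and Col6a4 did not reach, and levels run from 402 FPKM of Col1a2 in F5 to 0.00554 of Col6a4 in F27.

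For the tests, limma was fitted to log2(FPKM + 0.5) of those 16274 genes whose mean reached 0.5 FPKM, all 4 groups together, with p adjusted over all of these genes by Benjamini and Hochberg. The filter was passed by 41 collagen genes. Limma called 0 of 41 in each of the 6 contrasts, where the share of all genes called was 0.0676% for KO against WT at 5 months, 0.0123% at 8 months, 0.0799% averaged over both ages, 0.00614% for the difference of these between ages, 0.0123% for 8 against 5 months in WT and 0% in KO. Without adjustment, p was under 0.05 for 0, 2, 3, 3, 1 and 6 collagen genes in these contrasts, which is 0 to 14.6% of 41, where the background over all genes was 18.2, 5.17, 17.4, 4.68, 7.84 and 12.6%. These small counts rest on single libraries: the first was 4 without E3 or without F5, and the second was 6 without F27. The share of all genes in those refits was not counted, so the refit counts are no result about the collagens. So no single collagen gene passed the test between KO and WT or between ages, and the intervals below say how large a difference these libraries could have hidden.

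The median log2 change of the 41 genes was -0.08 for KO against WT at 5 months, with 15 above 0, and -0.07 at 8 months, with 17 above 0. Over all genes these medians were -0.03 and -0.00, with 44.3 and 48.3% of genes above 0. By class, the median was -0.40 at 5 months for the 4 tested beaded filament genes, all below 0, and 0.24 at 8 months, with 3 above 0. For the 11 fibril-forming genes it was 0.01 and -0.17, with 6 and 2 above 0, and for the 6 basement membrane genes -0.05 and -0.17, with 2 and 1 above 0. The other classes lay between, and these medians carry no test. The ± after a change is the standard error of the fit, and the median one of a collagen gene was 0.18 at a single age. A collagen gene typically varied more between libraries of 1 group than other genes did, with a median SD of 0.24 against 0.15 on the log2 scale, which is a description and carries no test.

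**Figure D3:**
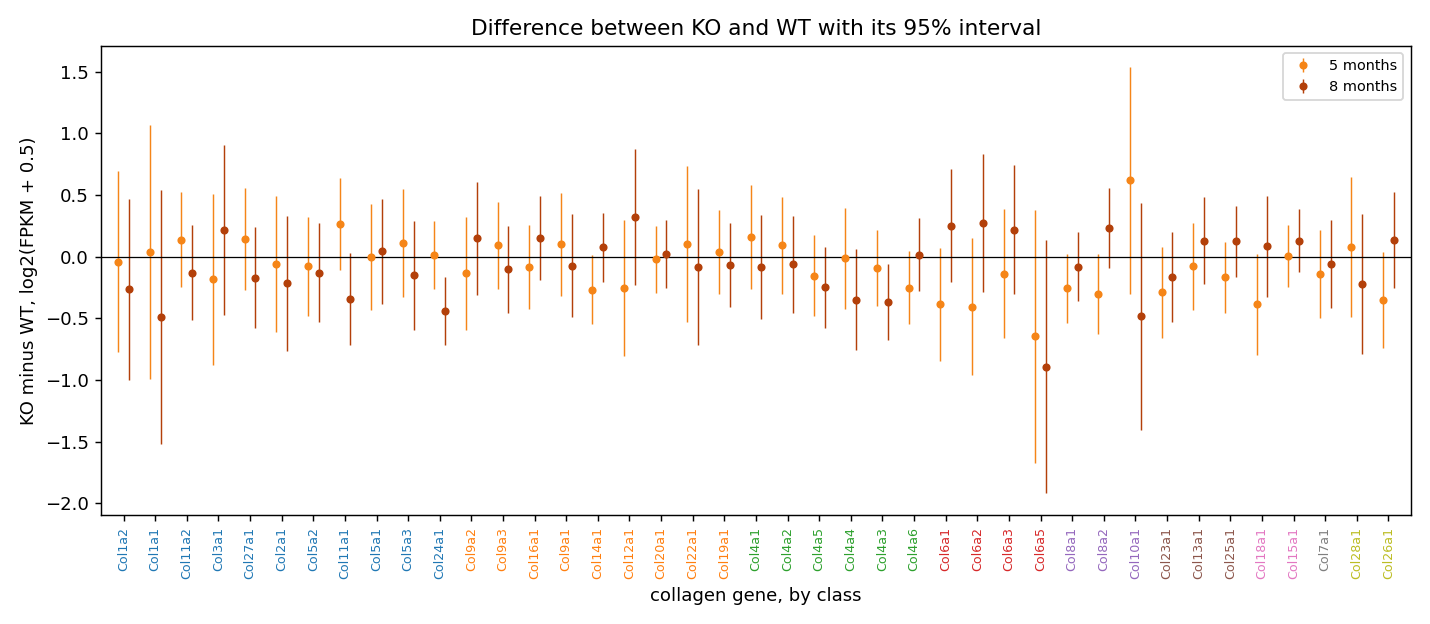
Difference between KO and WT (y axis, log2 of FPKM + 0.5, positive when KO is higher) for the 41 tested collagen genes (x axis, by class) at 5 and 8 months, with 95% intervals from the limma fit. Most intervals span 0, and the widest belong to Col1a1, Col6a5 and Col10a1.

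Type I collagen, the matrix of bone and of fibrous tissue, showed the largest spread among the abundant members. Col1a1 was at 128, 87.8 and 142 FPKM in WT and 117, 148 and 99.9 in KO at 5 months. At 8 months it was at 127, 190 and 308 in WT and 309, 83.0 and 105 in KO. The high values are those of F12, labelled WT, and F5, labelled KO, and the other 10 libraries lay between 83.0 and 190. Col1a2 showed the same pair on top, with 370 in F12, 401 in F5 and 151 to 253 elsewhere. Its group means were 207 ± 27.01 (WT) and 201 ± 19.9 (KO) at 5 months and 275 ± 86.0 and 244 ± 137 at 8 months (SD, n = 3).

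Neither gene separated the genotypes at either age. At 8 months the overlap rested on F5, as F6 and F27 lay below all WT values of both genes. For Col1a1 the change was 0.04 ± 0.46 at 5 months and -0.49 ± 0.46 at 8 months (limma, adjusted p = 0.978 and 0.979), and the 95% interval of the average over both ages ran from -0.96 to 0.50. From 5 to 8 months in WT it differed by 0.74 ± 0.46 (adjusted p = 0.639), and by 0.41 without F12. F12 and F5 were also the 8-month libraries with the most neutrophil and red cell marker RNA, 114 and 174 FPKM for the latter. E7, with the highest neutrophil sum of all, had 117 FPKM of Col1a1. The 12 osteoblast and osteocyte markers summed to 787 FPKM in F12 and 905 in F5, and to 896 in E4, where Col1a1 was at 142. By Xist, F1, F6 and F27 are female and F10, F12 and F5 male. At 8 months Col1a1 was at 83.0 to 127.5 FPKM in these females and 190 to 309 in these males, without overlap. Col1a2 was at 151 to 202 and 253 to 401.5 FPKM. At 5 months the only female, E4, had the highest WT value of both genes. The part of any of these in the type I levels was not tested.

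**Figure D4:**
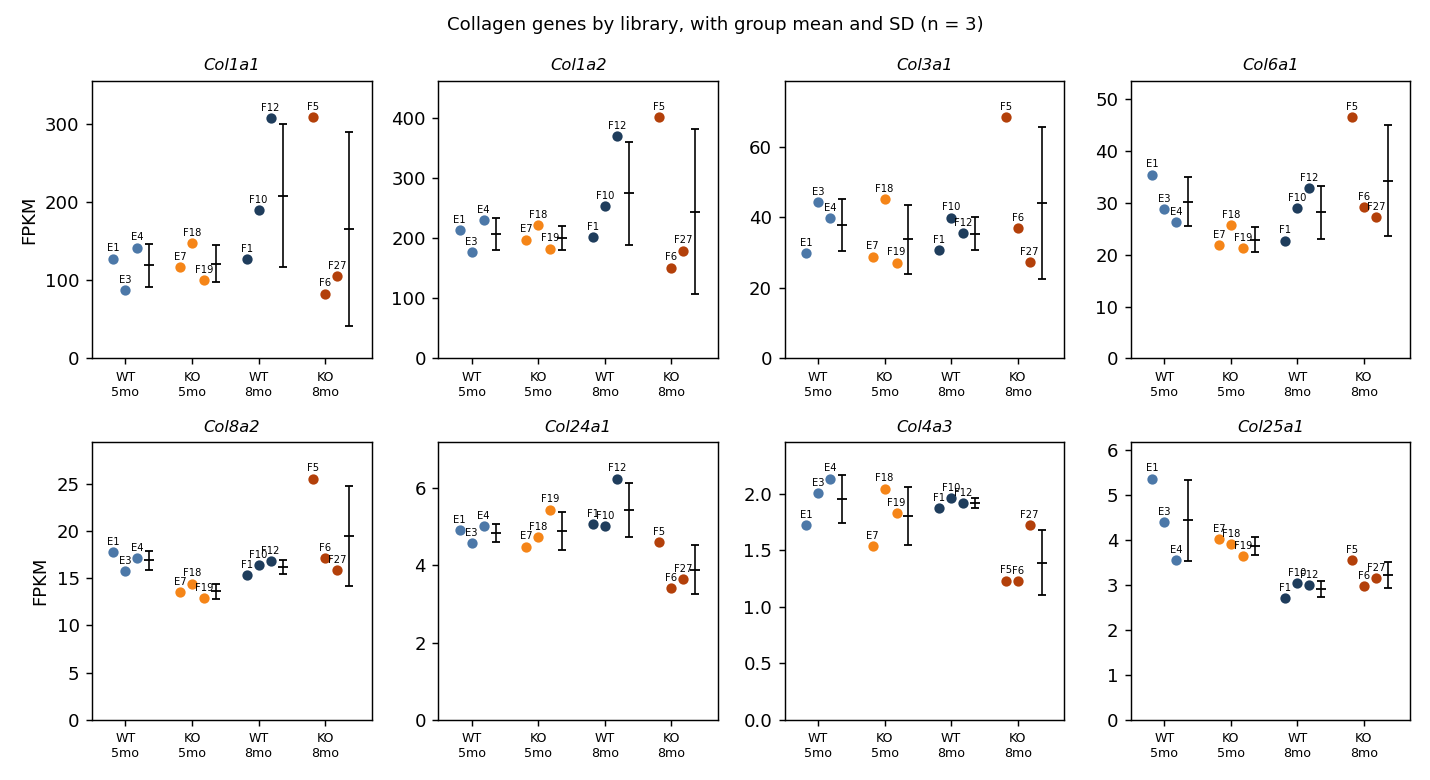
FPKM (y axis, from 0) of 8 collagen genes in each library (points, named by animal code) by group (x axis), with the group mean and SD as bars beside them (n = 3). F12 and F5 stand above the other libraries for Col1a1 and Col1a2, F5 alone for Col3a1, Col6a1 and Col8a2, and the 8-month groups do not overlap for Col24a1 and Col4a3.

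F5 stood out beyond type I. It was the highest library for 13 of the 41 genes, while F6 was the lowest for 10. Col3a1, the chain of type III in soft connective tissue, was at 68.5 FPKM in F5 and 27.2 to 45.2 in the other libraries. Col12a1, which coats type I fibrils, was at 14.8 in F5 against 5.93 to 9.48. F12 was highest for 3 genes.

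Collagens of cartilage and of the tectorial membrane were the next most abundant fibrillar group. Col11a2, whose loss causes hearing impairment, was at 96.8, 106 and 140 FPKM in WT and 107, 135 and 132 in KO at 5 months. By 8 months the values were 101, 148 and 113 in WT and 101, 103 and 124 in KO. The values of the groups overlapped at both ages, and the change averaged over ages was 0.00 ± 0.12 (adjusted p = 0.994), with a 95% interval of -0.27 to 0.28. Col2a1, the main chain of cartilage fibrils, ranged from 13.2 FPKM in F5 to 28.1 in E4 and differed by -0.06 ± 0.25 and -0.22 ± 0.25 at 5 and 8 months (adjusted p = 0.925 and 0.979).

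Col11a1 encodes the partner chain of Col11a2. Its 5-month KO values were 14.8, 18.5 and 18.03 FPKM and its 8-month ones 12.6, 9.46 and 14.8, a difference of -0.48 ± 0.17 (adjusted p = 0.342). At 8 months all KO values lay below the WT values of 15.2, 15.7 and 15.5, by -0.35 ± 0.17 (adjusted p = 0.962). Col27a1, a fibrillar chain of cartilage, had means of 29.7 ± 3.73 and 33.2 ± 6.78 FPKM in WT and KO at 5 months and 32.5 ± 7.17 and 28.6 ± 3.92 at 8 months (SD, n = 3), and the groups overlapped.

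Col24a1, a minor fibrillar collagen of bone, had the smallest p of the family in the KO and WT comparison at 8 months. It was at 5.07, 5.01 and 6.24 FPKM in WT and 4.61, 3.41 and 3.64 in KO. All 3 KO values were below all WT values, and the change was -0.44 ± 0.12 (unadjusted p = 0.00498, limma adjusted p = 0.872). At 5 months its change was 0.01 ± 0.12, with 4.91, 4.57 and 5.01 in WT and 4.49, 4.74 and 5.44 in KO, which overlap. Averaged over ages it was -0.21 ± 0.09 (adjusted p = 0.261). Both low libraries, F6 and F27, are female, but so are the WT libraries F1 and E4, at 5.07 and 5.01 FPKM. With sex as a covariate the 8-month change was -0.40 (limma, adjusted p = 0.94). The effect of sex itself was not tested.

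The type V chains regulate fibril width. Col5a2 had a mean of 15.6 FPKM over the libraries, Col5a1 of 7.57 and Col5a3 of 5.17, and each had its highest value in F5. Their changes averaged over ages were -0.10 ± 0.13, 0.02 ± 0.14 and -0.02 ± 0.14, with adjusted p of 0.708, 0.956 and 0.951 by limma. For none of these 3 did the groups separate at either age.

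Fibril-associated collagens bind the surface of fibrils. The 3 type IX chains, which coat type II fibrils, led this class with means of 48.3 FPKM for Col9a2, 33.4 for Col9a3 and 13.1 for Col9a1. Col9a2 was at 45.5, 46.7 and 53.1 in WT and 38.3, 43.7 and 50.5 in KO at 5 months, and at 35.1, 64.5 and 44.9 in WT and 41.9, 57.96 and 57.2 in KO at 8 months. F10 was the highest library for all of them, and no group separated. Exons of Col9a3 overlap those of Tcfl5 on the opposite strand, and the sources used here do not say whether counting used the strand.

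Next in this class came Col16a1 (mean 15.2 FPKM), Col14a1 (10.6), Col12a1 (8.42), Col20a1 (4.63), Col22a1 (2.78) and Col19a1 (0.593). Col14a1, which binds fibrils in tendon and skin, had the smallest adjusted p of the family at 5 months. It was at 10.5, 10.6 and 13.7 in WT and 8.65, 10.3 and 9.57 in KO, so KO lay below WT in every library, by -0.27 ± 0.13 (adjusted p = 0.291). For Col12a1 the same order held at 5 months, 8.66, 9.48 and 8.996 against 8.17, 7.33 and 7.09, with a change of -0.25 ± 0.25 (adjusted p = 0.625). At 8 months the change of both was above 0, 0.08 for Col14a1 and 0.32 for Col12a1, each with its highest value of that age in F5. In F6 and F27 Col14a1 was at 9.99 and 9.971, level with the lowest WT value of 9.995. Col12a1 was at 6.15 and 8.40 there, within the WT range of 5.93 to 8.63.

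Type VI collagen forms beaded filaments around cells. At 5 months Col6a1 was at 35.4, 28.7 and 26.3 FPKM in WT and 21.8, 25.6 and 21.2 in KO, and Col6a2 at 30.1, 22.8 and 23.8 against 18.3, 22.02 and 17.2. All KO values were below all WT values for both chains, with changes of -0.39 ± 0.21 (adjusted p = 0.349) and -0.41 ± 0.25 (adjusted p = 0.42). At 8 months the order did not hold: Col6a1 was at 22.7, 29.0 and 32.8 in WT and 46.5, 29.1 and 27.2 in KO. From 5 to 8 months in KO, Col6a1 was higher by 0.54 ± 0.21 and Col6a2 by 0.63 ± 0.25 (adjusted p = 0.356 and 0.361), and without F5 by 0.30 each.

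Col6a3, the longest chain of the type, averaged 5.06 FPKM and was highest in F5 at 8.68. The alternative chain Col6a5 was uneven: 2.50 in E1 and 3.07 in F12, and 0.281 to 1.19 in the other 10 libraries. At 8 months its WT values of 1.03, 1.19 and 3.07 lay above the KO values of 0.994, 0.733 and 0.281. The change averaged over ages was -0.77 ± 0.33 (adjusted p = 0.269), -0.53 without E1 and -0.58 without F12. Its neighbours Col6a4 and Col6a6 were below the filter, at 0.00554 to 0.166 and 0.238 to 0.611 FPKM, and their highest values were in F12 and E1 as well.

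Short-chain collagens form lattices. Col8a1 and Col8a2, of basement membrane underlayers, were both lower in KO than in WT at 5 months without overlap. Col8a2 was at 17.8, 15.8 and 17.1 FPKM in WT and 13.5, 14.4 and 12.9 in KO, a change of -0.30 ± 0.15 (adjusted p = 0.307), and for Col8a1 the change was -0.26 ± 0.13 (adjusted p = 0.314). At 8 months Col8a2 read 15.4, 16.4 and 16.8 in WT and 25.6, 17.1 and 15.8 in KO. Its difference from 5 to 8 months in KO, 0.47 ± 0.15, had the smallest p of that contrast in the family (unadjusted p = 0.00858, limma adjusted p = 0.318) and was 0.27 without F5. Col10a1, made by hypertrophic cartilage cells, was low, at 1.43, 0.632 and 0.944 FPKM in KO at 5 months and 0.106, 0.138 and 0.235 in KO at 8 months. That difference was -1.16 ± 0.41 (adjusted p = 0.342), and WT values of 0.0609 to 1.04 overlapped both.

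The 6 genes whose KO and WT values did not overlap at 5 months, Col6a1, Col6a2, Col8a1, Col8a2, Col12a1 and Col14a1, were all lower in KO. This is 14.6% of 41, where 13.8% of all tested genes were lower without overlap and 11.3% were higher. At 8 months 4 genes were lower in KO without overlap, Col11a1, Col24a1, Col4a3 and Col6a5, or 9.76% against 6.18% of all genes, and 0 were higher, against 4.1%. Summed by class, the 6 beaded filament genes were at 56.4 to 73.2 FPKM in WT and 43.8 to 54.1 in KO at 5 months. The 3 short-chain genes were at 40.1 to 49.4 and 35.9 to 36.4. At 8 months both sums overlapped, and at 5 months the sums of all other classes did. Both sums are mostly Col6a1 with Col6a2 and Col8a1 with Col8a2, already named, and add no separate result. The lists of the 2 ages share no gene, and 0 collagen genes separated all 6 KO from all 6 WT libraries, against 1.22% of all genes. Shares this near the background are no result about the collagens.

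Type IV collagens make the sheet of basement membranes. Col4a1 and Col4a2, the chains of most tissues, had means of 13.8 and 10.5 FPKM and were both highest in F18. Their changes averaged over ages were 0.04 ± 0.13 and 0.01 ± 0.13 (adjusted p = 0.904 and 0.963). Col4a3, Col4a4 and Col4a5, whose mutations cause Alport syndrome with kidney and hearing loss, averaged 1.77, 2.10 and 6.49 FPKM, and Col4a6 1.38. Col4a3 was at 1.88, 1.96 and 1.92 in WT and 1.23, 1.22 and 1.72 in KO at 8 months, without overlap, a change of -0.37 ± 0.14 (adjusted p = 0.941). Col4a4 differed by -0.35 ± 0.18 and Col4a5 by -0.25 ± 0.15 at that age (adjusted p = 0.962 for both). At 5 months the changes of these 3 genes were -0.09, -0.01 and -0.15.

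Among the remaining classes, the transmembrane collagens Col23a1, Col13a1 and Col25a1 averaged 7.89, 4.15 and 3.60 FPKM. Col17a1, of epithelial attachments, was at 0.774 in E1 and 0.0774 to 0.315 elsewhere, below the filter. Col7a1, of the fibrils that anchor skin epithelium, was likewise highest in E1, at 1.42 against 0.774 to 0.970, and the exons of Mir711 overlap its own on the same strand. The multiplexins Col18a1 and Col15a1 of vascular basement membranes averaged 7.06 and 4.88, and Col28a1 and Col26a1 1.85 and 1.81. In none of these 9 genes did KO and WT separate at either age.

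Col25a1, needed for motor innervation of muscle, had the smallest p of the family with age in WT. It was at 5.36, 4.39 and 3.55 FPKM at 5 months and 2.70, 3.04 and 2.99 at 8 months, without overlap and lower by -0.52 ± 0.13 (unadjusted p = 0.00245, limma adjusted p = 0.63). In KO it went from 4.02, 3.91 and 3.63 to 3.54, 2.97 and 3.15, again without overlap, by -0.23 ± 0.13 (adjusted p = 0.484). The skeletal muscle markers summed to 16.7 FPKM in E1, where Col25a1 was highest, and to 976 in E3. The part of muscle or of other tissue in the Col25a1 values was not tested. All 5-month WT animals carry codes with E and all 8-month animals codes with F, so age and code letter cannot be told apart in WT. In KO the 5-month libraries are all male by Xist, while F6 and F27 at 8 months are female. Non-overlap with age in WT held for 3 genes, all lower (7.32%, against 8.81% of all genes), and in KO for 4 higher and 2 lower (9.76 and 4.88%, against 11.1 and 4.6%).

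For chains of the same trimer or type, 11 ratios of FPKM were compared, with no fixed proportion assumed. Col4a1 over Col4a2, the pair that starts 2 bases apart, was the steadiest, at 1.20 to 1.44 over all 12 libraries while each chain alone varied 1.62- and 1.63-fold. Col6a1 over Col6a2 lay between 1.11 and 1.26 in 11 libraries and at 0.985 in F5. Col1a1 over Col1a2 varied more, from 0.495 in E3 to 0.832 in F12, with 0.769 in F5 and 0.752 in F10, so the chain of which a trimer holds 2 copies was the scarcer one by this measure in every library. Col11a2 exceeded Col2a1 by 4.59- to 7.63-fold and Col11a1 by more, the ratio of Col11a1 to Col11a2 being 0.092 to 0.150. FPKM are set by the annotated transcript length, and the absolute ratios carry its error.

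The ratios were tested between KO and WT by a two-sided exact permutation of the labels within each age, with 400 assignments, a smallest possible p of 0.005 and p adjusted over the 11 ratios. Col5a1 over Col5a2 had the smallest exact p, 0.03 (adjusted p = 0.33). It was at 0.551, 0.485 and 0.479 in WT and 0.524, 0.544 and 0.524 in KO at 5 months, and at 0.378, 0.461 and 0.442 in WT and 0.489, 0.488 and 0.466 in KO at 8 months. The 8-month groups did not overlap, and the mean difference over both ages was 0.12 on the log2 scale. For the other 10 ratios the exact p was 0.325 or more and the differences lay between -0.13 and 0.14. This test averages over the ages, so that opposite differences cancel. Col9a1 over Col9a2 was at 0.230, 0.265 and 0.253 in WT and 0.275, 0.316 and 0.294 in KO at 5 months, and at 0.343, 0.275 and 0.275 in WT and 0.252, 0.257 and 0.251 in KO at 8 months. KO lay above WT without overlap at the first age and below it without overlap at the other, and the mean difference over both was 0.01. At 5 months KO was above WT without overlap also for Col9a3 over Col9a2 and for Col11a1 over Col11a2, which overlapped at 8 months. The ratios were not tested at single ages, where 3 libraries against 3 cannot pass the threshold. The share of other gene pairs that separate in this way was not counted, so these orders are a description and no result about the genotype. Col9a1 over Col9a2 and Col9a3 over Col9a2 also share a chain.

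**Figure D5:**
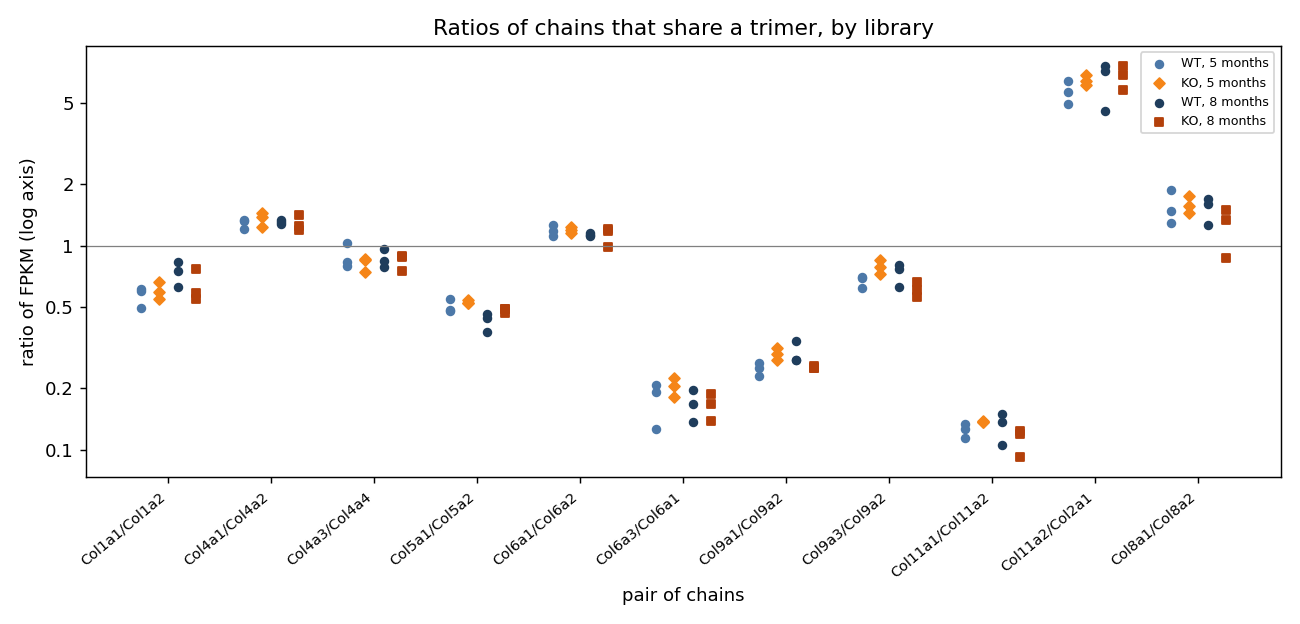
Ratio of FPKM of 2 chains of the same trimer or type (y axis, log scale) for 11 pairs (x axis), 1 point per library with colour and shape for the group. Col4a1/Col4a2 lies at 1.20 to 1.44, Col6a1/Col6a2 at 0.985 to 1.26 and Col11a1/Col11a2 at 0.092 to 0.150. Col9a1/Col9a2 has KO above WT at 5 months and below it at 8 months, an order that was not tested.

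Genes that make, bind or degrade collagen were read from 6 lists, and limma called 0 of their genes in every contrast. Of the 19 tested genes that modify and fold chains, 2 were higher and 0 lower in KO averaged over ages at an unadjusted p under 0.05: the lysyl hydroxylase Plod3, by 0.14 ± 0.05 (adjusted p = 0.223), and P4hb, a subunit of prolyl hydroxylase, by 0.12 ± 0.05 (adjusted p = 0.275). Over all genes 7.75% were higher by that measure. The proline isomerase Ppib, at 93.5 ± 5.48 FPKM in WT at 5 months, differed by 0.09 ± 0.04 (adjusted p = 0.302). With age in KO, 6 of the 19 had an unadjusted p under 0.05, all higher, against 8.84% of all genes. Among them were Ppib, Fkbp10, a chaperone of procollagen, and Crtap, of prolyl hydroxylation. Fkbp10 went from 16.5 ± 0.910 to 20.2 ± 1.10 FPKM there and Crtap from 34.1 ± 2.58 to 40.9 ± 4.0 (SD, n = 3). By Xist, the 5-month KO libraries are all male, and F6 and F27 of the 8-month ones are female. Neutrophil markers also summed to 4138 to 22840 FPKM in KO at 5 months and 894 to 16750 at 8 months. The part of sex or of marrow cells in the KO age differences of the 6 lists was not tested.

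Of 12 genes for propeptide cleavage and cross-linking, Adamts3, which trims procollagen II, had the smallest p for KO against WT averaged over ages, with -0.36 ± 0.11 (adjusted p = 0.207). It was at 1.04 ± 0.184 FPKM in WT and 0.695 ± 0.0771 in KO at 5 months and at 0.877 ± 0.122 and 0.578 ± 0.106 at 8 months. Tll1, a C-propeptidase, differed by -0.69 ± 0.17 at 5 months (adjusted p = 0.162) and 0.19 ± 0.17 at 8 months. Pcolce2, an enhancer of that cleavage, differed by 0.17 ± 0.12 averaged over ages. Pcolce, its relative, and the cross-linking oxidase Loxl1 had means of 92.7 and 16.4 FPKM in KO at 5 months and 123 and 23.8 at 8 months, differences of 0.40 ± 0.08 and 0.52 ± 0.13 (adjusted p = 0.289 and 0.297).

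Proteins that bind fibrils were higher in FPKM than the collagens, 1919 to 2394 summed over 13 genes. At 5 months 11 of the 13 changes were below 0, with a median of -0.14, and at 8 months 11 were above 0, with 0.10. The difference of these changes between ages was above 0 in 12 of 13, with a median of 0.43 where that of all genes was 0.01. Limma called 0 of them, 2 had an unadjusted p under 0.05 in this contrast (4.68% over all genes), and no test was made of the list. The 9 fibroblast and fibrocyte markers, of which Dcn and Lum are in both lists, had 7 changes below 0 at 5 months (median -0.13), 7 above 0 at 8 months (0.13) and 8 above 0 for the difference (0.13). Their part in the fibril-binding values was not tested. The difference was also above 0 in 8 of 8 Schwann cell, 7 of 7 brain glia and 7 of 7 skeletal muscle markers (medians 0.14, 0.47 and 1.99). It was below 0 in all 11 neutrophil, 7 B cell and 5 red cell markers, and in most stria and osteoclast markers. The direction is thus not particular to the fibril-binding genes. Fmod, fibromodulin, which governs fibril width, was at 71.9 ± 17.9 FPKM in WT and 38.6 ± 2.97 in KO at 5 months (-0.86 ± 0.18, adjusted p = 0.146) and at 58.4 ± 7.68 and 67.3 ± 11.8 at 8 months. Kera, keratocan, differed by -0.998 ± 0.41 and -0.10 ± 0.41 at the 2 ages, and Thbs1, a thrombospondin also carried by platelets, by 0.62 ± 0.24 and 0.36 ± 0.24. At 5 months their limma adjusted p was 0.245 and 0.226. Kera was low, at 0.873, 1.66 and 4.26 FPKM in WT at 5 months, the last in E4. Thbs1 in KO was at 58.3 in E7, 38.4 and 36.3 at 5 months and 50.5 in F5, 26.4 and 29.6 at 8 months. Biglycan, Bgn, differed by -0.19 ± 0.11 and 0.26 ± 0.11, and Prelp by -0.14 ± 0.09 and 0.07 ± 0.09, with adjusted p of 0.402 or more in these 4 contrasts. From 5 to 8 months in KO, Bgn differed by 0.46 ± 0.11 and Prelp by 0.24 ± 0.09 (limma, adjusted p = 0.297 and 0.352).

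For 11 collagen receptors the median change was -0.00 at 5 months and 0.06 at 8 months. Gp6, the receptor of platelets, was at 0.169 ± 0.0558 FPKM in WT and 4.38 ± 4.15 in KO at 5 months, a change of 2.54 ± 0.76 (adjusted p = 0.19), and the neutrophil markers were high in the same KO libraries. Their part in it was not tested. Cd44 differed by 0.54 ± 0.20 at 5 months, and Ddr2, a receptor kinase for fibrillar collagen, by -0.22 ± 0.10 (adjusted p = 0.225 and 0.28). The integrin chains Itga11 and Itga2 differed by -0.22 ± 0.13 and 0.41 ± 0.21 there (adjusted p = 0.371 and 0.341). From 5 to 8 months in KO these 2 differed by 0.35 ± 0.13 and -0.57 ± 0.21 (limma, adjusted p = 0.342 and 0.35).

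Among 16 proteases and inhibitors, Mmp8, a collagenase stored by neutrophils, was at 2.06 ± 1.41 FPKM in WT and 41.2 ± 42.5 in KO at 5 months (3.63 ± 1.28, adjusted p = 0.217). Mmp11 differed by -0.20 ± 0.07 averaged over ages (adjusted p = 0.233) and was higher at 8 than at 5 months in WT by 0.33 ± 0.10. Reck, an inhibitor at the membrane, differed by -0.13 ± 0.07, Mmp2 by -0.06 ± 0.09 and its inhibitor Timp2 by 0.00 ± 0.06 averaged over ages. From 5 to 8 months in KO, Mmp2 differed by 0.32 ± 0.13 and Timp2 by 0.19 ± 0.08 (limma, adjusted p = 0.361 and 0.39). Of 12 transcription factors of collagen-making cells, Mkx, of tendon, differed by -0.39 ± 0.12 at 5 months and -0.27 ± 0.08 averaged over ages (adjusted p = 0.191 and 0.199). Prrx1 differed by -0.11 ± 0.06, Sox9, of cartilage, by -0.16 ± 0.10, Twist1 by 0.01 ± 0.09 and Foxc1 by -0.06 ± 0.07 in the average. From 5 to 8 months in KO, Twist1 differed by 0.40 ± 0.13 and Foxc1 by 0.21 ± 0.10 (limma, adjusted p = 0.321 and 0.409). The median of the 12 was -0.08 averaged over ages, where that of all genes was -0.02.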

How the data were processed

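RNA of mouse cochleae was measured in 12 libraries. The authors prepared stranded polyA libraries and aligned the reads to mm9. The submitters' notes name FastQC 0.10.1, TopHat2 2.0.10, Bowtie 1.0.0, SAMtools 0.1.19 and Cufflinks 2.2.1, from which the authors took FPKM, deposited as 1 table with a column per library. Depth is not given by FPKM, so the part of read counts in the spread of low genes is not known. The number of libraries also limits the precision.

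In many deposited values the decimal point was missing. It was put back by taking, for the 3 values of a gene and group, the placing that averages to the FPKM given for that group in the authors' Cuffdiff tables (relative tolerance 2e-05), a step tested on simulated data. This gave 1 placing for 95788 of 95804 gene and group pairs, and 55.18% of values were changed. The 8 genes with another outcome were left out, none a collagen. The other deposited tables and columns hold the authors' fold changes, p-values and gene set reports and were not used.

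Genes whose mean reached 0.5 FPKM entered limma 3.58.1 (R 4.3.3) as log2(FPKM + 0.5) with a variance trend, all 4 groups together, adjusted by Benjamini and Hochberg at 0.05. A fold change on this scale understates that of low genes. The fit was tested on simulated data. Chain structure was read from the deposited annotation and the mm9 genome. Ratios, tables and figures were made in Python 3.11.15 with NumPy 2.4.6 and Matplotlib 3.10.9. Collagens over 0.5 FPKM are all named. Of the pathway lists, genes called in a contrast and the 3 of smallest p for genotype averaged over ages and for age in either genotype are named. The collagen genes and the lists were chosen with earlier results of these data known. Alternatives changed 1 choice each: pseudocount, filter, scaling, variance trend, library weights, a covariate, the samples in the fit, or a library left out.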

Additional observations from a re-analysis of the deposited data

How the results depend on the processing

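The count of collagen genes called stayed at 0 under each of the 23 or 24 alternatives of every contrast. The smallest adjusted p of a collagen gene over them was 0.0922, for Col8a2 in KO against WT at 5 months without F5. The number with an unadjusted p under 0.05 was less stable. It ran from 0 to 6 for KO against WT at 5 months, 1 to 6 at 8 months and 0 to 5 averaged over both. For the difference between ages it was 1 to 6, for age in WT 0 to 2 and for age in KO 3 to 7. Under sex as a covariate it was 6 for KO against WT at each age. The share of all genes under these alternatives was not counted, so these counts are no result about the collagens. Without each library in turn the median change of the collagens ran from -0.13 to 0.04 for KO against WT at 5 months, from -0.09 to 0.00 at 8 months, from -0.11 to -0.01 averaged over both, from -0.08 to 0.07 for the difference between ages, from -0.09 to 0.05 for age in WT and from -0.10 to 0.08 for age in KO. With the letter of the animal code as a covariate the median was 0.11 for the difference between ages and -0.21 for age in WT, and the number of collagens above 0 in KO against WT averaged over ages went from 15 to 3 of 41. Only the KO group at 5 months holds both letters, so the letter term rests on E7 alone. With sex as a covariate the median of the difference between ages was 0.0706. The cause was not tested. Without F12 and F5 together, an alternative chosen after seeing the data, the medians were -0.11 for KO against WT at 8 months and 0.00 for age in WT. All 11 chain ratios stayed above an adjusted p of 0.05 under 14 alternatives. No paired analysis was possible because the animal codes are not shared between groups. With 3 libraries per group the intervals are wide, and they carry no adjustment over all genes. A change whose interval excludes 0 can therefore stay uncalled. That of Col24a1 in KO against WT at 8 months had an interval of -0.72 to -0.17 (limma, adjusted p = 0.872).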
